A study of Mus musculus with 12 samples.

Results

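Whether a gene responded to aortic banding differently in hearts with a CnAb1 transgene than in wild-type hearts was the question here. CnAb1 is made by alternative splicing of Ppp3cb, which encodes a catalytic subunit of calcineurin. The measure is the interaction: the difference between Transgenic TAC and Transgenic Sham minus the difference between Control TAC and Control Sham. All 12 of the 12 arrays of the series enter it, in 4 groups of 3 chosen by their titles. Control Sham and Control TAC hearts came from wild type C57/Bl6 mice, and Transgenic Sham and Transgenic TAC hearts from C57/Bl6 mice labelled CnAb1 transgenic overexpressing. TAC hearts had been banded and Sham hearts had not, and a section of the left ventricle was taken 21 days after surgery in all groups, per the protocol and sample sources; the time label of the sham groups reads 0. Each array held total RNA in 1 colour (Cy3) on an Agilent mouse array. The promoter and the cells that drive the transgene, the number of founder lines, and the age and sex of the mice are not given in the sources used here, nor whether each array is a separate mouse, so p-values measure the spread between arrays. In such bulk tissue, fewer cells of a type and less RNA per cell cannot be told apart.

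Banding raises the pressure against which the left ventricle ejects. Its muscle cells grow, re-express genes of the fetal heart such as the natriuretic peptides and the beta myosin heavy chain, and lower genes of fatty acid oxidation, while fibroblasts lay down collagen. Calcineurin is a calcium-activated phosphatase whose best-known substrates, the NFAT factors, switch on hypertrophy genes; the CnAb1 variant has a different C terminus from the classical form. An interaction can arise from either of its terms. A gene can already differ between the genotypes in unbanded hearts, or it can be alike in unbanded hearts and reach a different level after banding. The interaction is exactly the genotype difference in banded hearts (Transgenic TAC minus Control TAC, the banded term) minus that in sham hearts (Transgenic Sham minus Control Sham, the sham term), and these terms share no array.

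Signals are log2 processed signal minus the 75th percentile of the array, so they are relative within an array and are compared only for the same gene. On that scale 25311 genes were tested with limma, with a threshold of 0.05 on the Benjamini-Hochberg adjusted p. Transgenic Sham 2 stood apart before any comparison: the net signal of its negative control spots was 48.6, where the remaining 11 arrays had 15.4 to 21.0, and 37.0% of its probes were well above background, against 60.2% to 78.1%. The check of the transgene was limited. Ppp3cb, the gene of the variant, read 1.72, 1.64 and 1.66 in Control Sham, 1.41, 1.33 and 1.45 in Control TAC, 1.48, 1.29 and 1.44 in Transgenic Sham and 1.55, 1.47 and 1.52 in Transgenic TAC. Transgenic hearts lay lower in sham and higher in banded hearts, and neither difference passed (sham term -0.27 ± 0.09 SE, adjusted p = 0.183; banded term 0.12 ± 0.09, adjusted p = 0.505), and whether this probe lies in the part that the variant and the transgene carry is not given, so it checks nothing. Defining markers of ventricular muscle (Myh6, Tnni3, Mb) were detected above background in every library.

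The interaction passed for 1724 genes (6.81% of those tested). Of these, 817 (3.23%) were lower, with a transgenic response below the control response, and 907 (3.58%) were higher. On banding 5204 genes passed in control hearts (20.6%) and, by the same limma fit, 0 in transgenic hearts (0%; 1590 at an unadjusted p under 0.05), which by itself does not show a difference; the interaction is the test of it. The median response of the 817 lower genes was 1.17 in control and -0.09 in transgenic hearts, and that of the 907 higher genes was -0.75 and 0.15. The estimated responses had opposite signs in the genotypes for 530 of the lower and 782 of the higher genes. These genes were selected by the difference between the responses, and no transgenic response passed by itself. The signs therefore do not show that a response was reversed. Among the terms, 359 genes passed for the sham term (1.42%; 164 lower, 0.648%, and 195 higher, 0.77%) and 1028 for the banded term (4.06%; 543 lower, 2.15%, and 485 higher, 1.92%). The number of interaction genes rested on single arrays: it was 162 without Control Sham 3, 176 without Control Sham 1, 325 without Transgenic TAC 1, 449 without Control TAC 3, 608 without Control TAC 1, 623 without Control Sham 2, 763 without Transgenic Sham 2 and 810 without Transgenic TAC 3. With the slide as a fixed block it was 0 (5569 at an unadjusted p under 0.05). With normexp background correction it was also 0 (2811 at an unadjusted p under 0.05). All 1724 genes kept their sign with the slide block. They were selected for their interaction on these same arrays, so kept signs are little support.

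**Figure D1:**
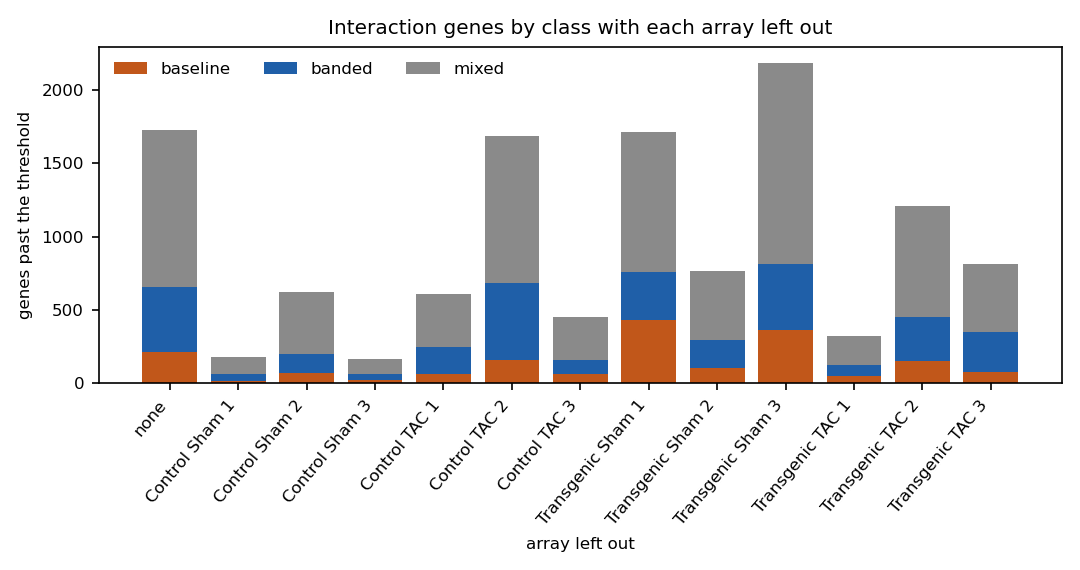
Number of genes past the threshold for the interaction (y axis) with no array and with each of the 12 arrays left out (x axis), split into the baseline, banded and mixed classes. The bars run from 162 genes without Control Sham 3 to 2184 without Transgenic Sham 3, and mixed genes form the tallest part of each bar.

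Each interaction gene was assigned by the share of its interaction that each term supplies. A gene is baseline where the sham term gives at least 66.7% of it, banded where the banded term does, and mixed between these limits. By this rule 214 genes (12.4%) were baseline, 442 (25.6%) banded and 1068 (61.9%) mixed; over all genes tested the shares were 34.9%, 38.3% and 26.8%. Of the genes with a lower interaction, 282 were banded, 69 baseline and 466 mixed, and of those with a higher one, 160 were banded, 145 baseline and 602 mixed. The class is an estimate, and whether the shares are unequal was tested separately with the sum of the terms, which is independent of the interaction. Where the terms have the same sign, as in Mthfd2, Dhrs4, Lama2 and Ankrd1, the sum measures the genotype difference over both surgeries. In such genes it does not compare the sizes of the terms. The sum passed for 240 genes of all tested (0.948%) and for 32 of the 1724, of which 20 were banded, 12 baseline and 0 mixed. With 1 array left out, between 4 (without Control Sham 1) and 96 (without Transgenic Sham 1) of the interaction genes passed it. Genes just inside and outside the limits had like shares: the sham term gave 66.7% for Acss1 (baseline), an acetyl-CoA synthetase, and 66.6% for Sdhc (mixed), a subunit of succinate dehydrogenase, and it gave 33.3% for Adss (banded), an enzyme of purine synthesis, and 33.4% for Ccn5 (mixed), a matricellular protein.

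**Figure D2:**
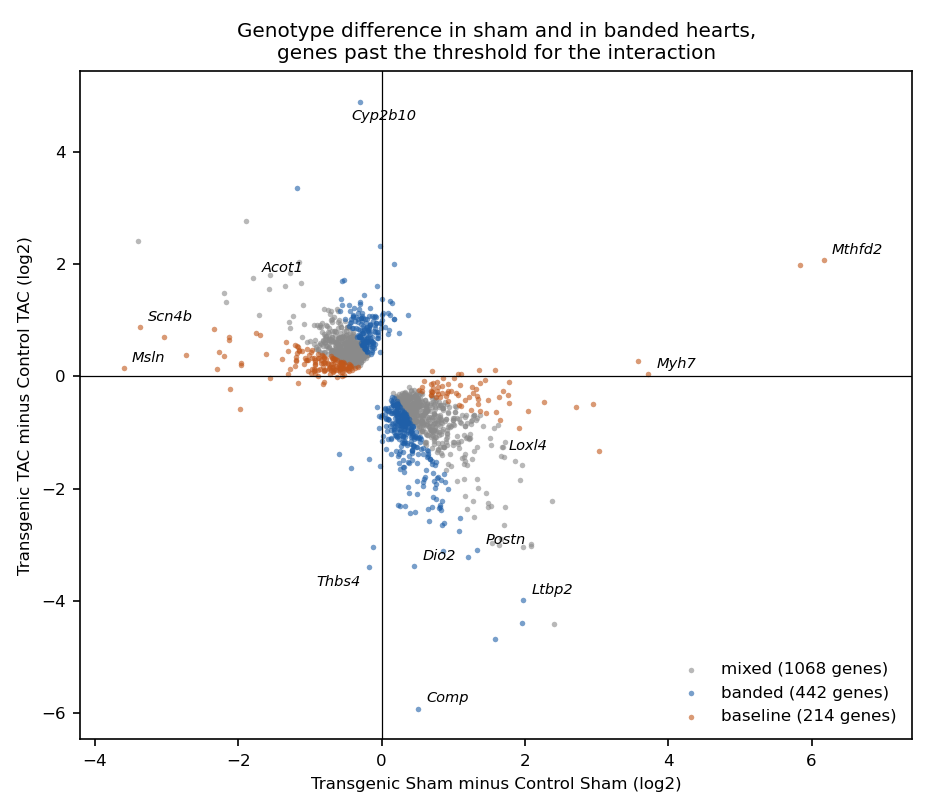
Each point is 1 of the 1724 genes past the threshold for the interaction: genotype difference in sham hearts (x axis, log2) against that in banded hearts (y axis, log2), coloured by class. Banded genes such as Comp and Thbs4 lie along the vertical axis, baseline genes such as Myh7 and Msln along the horizontal one, and mixed genes between them in the quadrants where the terms have opposite signs.

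For genes in which the sum of the terms passed, the sequence before the start site is shown for 2 of each kind. These 4 are examples picked from 32 such genes. In Mthfd2 both terms are upward, so the sum does not compare their sizes there. Each sequence is the 250 bases before the first listed start in RefSeq (GRCm38.p6), 5′ to 3′ on the gene's strand. Capitals mark the MCAT element, CATTCC on either strand. This element is the site of TEAD factors and was described in promoters of muscle genes. Myh7 (chr14:54994627-54994876, minus strand) and Mthfd2 (chr6:83317605-83317854, minus strand) are baseline genes, and Thbs4 (chr13:92794819-92795068, minus strand) and Dio2 (chr12:90739039-90739288, minus strand) are banded genes.
Myh7: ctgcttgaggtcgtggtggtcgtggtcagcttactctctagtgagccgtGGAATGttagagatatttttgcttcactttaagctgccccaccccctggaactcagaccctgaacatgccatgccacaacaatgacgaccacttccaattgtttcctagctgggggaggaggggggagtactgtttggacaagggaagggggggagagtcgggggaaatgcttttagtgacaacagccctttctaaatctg
Mthfd2: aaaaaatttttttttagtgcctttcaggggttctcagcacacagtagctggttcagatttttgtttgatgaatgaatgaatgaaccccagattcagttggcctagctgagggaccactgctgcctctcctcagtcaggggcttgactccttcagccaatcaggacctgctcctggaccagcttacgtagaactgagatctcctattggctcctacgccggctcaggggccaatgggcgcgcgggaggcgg
Thbs4: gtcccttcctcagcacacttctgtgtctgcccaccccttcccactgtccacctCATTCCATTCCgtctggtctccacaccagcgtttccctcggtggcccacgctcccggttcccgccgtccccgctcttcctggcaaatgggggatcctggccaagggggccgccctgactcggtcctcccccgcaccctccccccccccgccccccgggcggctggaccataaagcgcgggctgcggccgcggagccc
Dio2: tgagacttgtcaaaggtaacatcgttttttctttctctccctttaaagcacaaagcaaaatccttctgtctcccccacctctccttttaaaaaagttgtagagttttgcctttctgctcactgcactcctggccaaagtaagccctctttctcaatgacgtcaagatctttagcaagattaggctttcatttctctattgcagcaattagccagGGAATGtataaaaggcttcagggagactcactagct
Myh7 and Dio2 hold 1 match each, Thbs4 holds 2 that overlap, and Mthfd2 holds 0. The letters occur before the start of 14.4% of the 27025 genes in the table, of 17.7% of the 136 baseline genes found there, 18.2% of the 269 banded genes and 14.4% of the 675 mixed genes. CCAAT, a common element of promoters, was found in 48.5% of baseline, 33.8% of banded and 43.0% of mixed genes, against 37.5% of all. GGAAAA, the core of NFAT sites, was found in 18.4%, 19.0% and 20.9%, against 22.9%. TGATGNAA, the core of the element read by ATF4 and its CEBP partners, was found in 2.2%, 3.7% and 3.4%, against 3.9%. Both strands were searched for each of the 4 motifs; the shares are descriptions with no test.

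The banded class was led by genes of the extracellular matrix, which reached a lower level in banded transgenic hearts than in banded control hearts. Comp, a pentameric protein that binds collagen, read -2.00, -2.35 and -2.77 in Control Sham, 4.90, 2.12 and 5.72 in Control TAC, -1.17, -2.21 and -2.21 in Transgenic Sham and -1.70, -1.08 and -2.25 in Transgenic TAC. Control TAC alone was high, Control TAC 2 the least so, and the other 3 groups overlapped. Its interaction was -6.43 ± 1.10 (SE; adjusted p = 0.0182), with a sham term of 0.51 ± 0.78 and a banded term of -5.92 ± 0.78, so that the banded term gave 92.1% of it; the call was lost without Control Sham 1 or without Control Sham 3 (adjusted p up to 0.0567).

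Thbs4, a thrombospondin of injured muscle and stressed hearts, showed the same form with less spread. It read -0.01, 0.55 and 0.30 in Control Sham, 4.41, 3.49 and 4.56 in Control TAC, 0.25, -0.14 and 0.21 in Transgenic Sham and 0.40, 1.07 and 0.78 in Transgenic TAC. The sham groups overlapped and the banded groups were far apart. Its interaction was -3.23 ± 0.41 (adjusted p = 0.0112), its sham term -0.17 ± 0.29 and its banded term -3.40 ± 0.29 (adjusted p = 0.000492). The sum of the terms passed (adjusted p = 0.0027), and both this test and the interaction passed with any of the 12 arrays left out. On the slide that held both banded groups (Transgenic TAC 3 with Control TAC 1 and 3) the banded term was -3.70.

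Dio2 makes the active thyroid hormone inside cells, and it was chosen after its values were seen, as a gene in which the sum of the terms passed. It read -2.81, -2.69 and -3.56 in Control Sham, 1.42, 1.22 and 2.42 in Control TAC, -2.27, -2.90 and -2.51 in Transgenic Sham and -1.92, -1.57 and -1.61 in Transgenic TAC. The sham groups overlapped and the banded groups did not. The interaction was -3.84 ± 0.47 (adjusted p = 0.0112) and the banded term -3.38 ± 0.33, 88.1% of it (sum of the terms, adjusted p = 0.018, lost without some arrays at up to 0.0640).

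Postn, a matricellular protein of activated fibroblasts, carried a part of its interaction in sham hearts. It read -1.22, -0.66 and -1.54 in Control Sham, 4.27, 4.08 and 4.57 in Control TAC, 0.15, 0.14 and 0.28 in Transgenic Sham and 0.28, 2.14 and 1.20 in Transgenic TAC. Both sham groups and both banded groups were separate, with the transgenic hearts higher in sham and lower in banded hearts. The interaction of -4.43 ± 0.57 (adjusted p = 0.0116) came to 69.9% from the banded term, -3.10 ± 0.40, while the sham term of 1.33 ± 0.40 did not pass (adjusted p = 0.136). Ltbp2, which binds microfibrils, had a still larger interaction of -5.96 ± 0.71 (adjusted p = 0.0112) and lay at the limit of the class, with 66.8% from the banded term; without some arrays it became mixed.

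Of 16 measured collagen chains, 14 had a lower interaction, against 3.23% of all genes; 12 of them were banded and 2, Col5a2 and Col8a1, mixed. The median over the list was -2.45 for the interaction, 0.72 for the sham term and -1.71 for the banded term, against 0.06, -0.04 and 0.02 over all genes. Col1a1, the main chain of type I collagen, read 1.53, 1.71 and 1.23 in Control Sham, 5.15, 4.51 and 5.79 in Control TAC, 1.97, 2.64 and 2.41 in Transgenic Sham and 1.92, 2.92 and 2.64 in Transgenic TAC. The transgenic hearts lay at one level whether banded or not, somewhat above Control Sham and well below Control TAC. Its interaction was -3.50 ± 0.50 (adjusted p = 0.0139), and 75.8% of it was the banded term of -2.66 ± 0.35. Among basement membrane chains, Col4a2 had the smaller interaction of -1.24 ± 0.18 (adjusted p = 0.0139) and a sham term of 0.14 ± 0.12. Col15a1 (-1.70) and Col8a2 (0.47) did not pass. The 16 chains were lower as a list without Transgenic Sham 2 as well, with 14 calls and a median of -2.35. Over all genes tested 445 were lower without that array, against 817 with it.

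Of 38 matricellular and secreted matrix proteins, 22 passed, all lower (against 3.23% of all genes; 17 without Transgenic Sham 2), with 9 banded, 12 mixed and 1 baseline (Fbln2, a fibulin). The list's median interaction was -1.87. Ccn2, a target of TGF-beta and of YAP and TEAD factors, was banded, with an interaction of -2.64 ± 0.54 (adjusted p = 0.0266) and 87.4% from the banded term; its call was lost with any of 6 single arrays left out. Fbn1, the main fibrillin, was mixed at -2.56 ± 0.29 (adjusted p = 0.0112). Collagen processing had 9 lower genes of 23, against the same 3.23%, among them the procollagen proteases Adamts2 (-2.77 ± 0.34) and Bmp1 (-1.58 ± 0.17) and the crosslinking enzyme Loxl1 (-2.15 ± 0.32), each banded; another probe of Bmp1 gave 0.58. Of 18 genes of TGF-beta and activin signalling 6 were lower, against 3.23% of all genes. Without Transgenic Sham 2 there were 2, with 445 lower over all genes tested. The ligands Tgfb2 (-2.35 ± 0.39, mixed) and Tgfb3 (-1.84 ± 0.46, banded, lost with any of 11 single arrays left out) passed. So did both TGF-beta receptors, follistatin (Fst, lost with any of 10) and Fstl1. The ligand Tgfb1 (0.00) and the Smad genes on the list did not. Of the fibroblast markers 5 of 8 were lower, against 3.23% of all genes (3 without Transgenic Sham 2), and the mean of the list lay between 1.18 and 1.75 in Control Sham, 2.97 and 3.39 in Control TAC, 1.85 and 2.08 in Transgenic Sham and 2.09 and 2.30 in Transgenic TAC. Among the 8, Col1a1, Lum, Dcn, Pi16 and Meox1 passed, and Pdgfra (-1.04), Dpt (-0.51) and Tcf21 (-0.17) did not. Meox1 lost its call with any of 7 single arrays left out. The part of fibroblast number in the collagen and matrix results was not tested.

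Among further banded genes, Lama2 had its sham term in the same direction as its banded term. Lama2, the laminin chain of the muscle basement membrane, read 3.04, 2.94 and 2.94 in Control Sham, 3.69, 3.78 and 3.90 in Control TAC, 2.45, 2.45 and 2.25 in Transgenic Sham and 2.25, 2.55 and 2.39 in Transgenic TAC. Transgenic hearts were lower than control hearts under both surgeries, and more so after banding. The sham term was -0.59 ± 0.11 (adjusted p = 0.041), the banded term -1.39 ± 0.11 (adjusted p = 0.00037) and the interaction -0.81 ± 0.16 (adjusted p = 0.0255); the interaction lost its call with any of 7 single arrays left out, among them Transgenic Sham 2. Lama2, Sord and Snrpn were all chosen after their values were seen, from the genes in which the sum of the terms passed. Sord, an enzyme of the polyol pathway, read 4.45, 4.45 and 4.53 in Control Sham, 3.33, 3.29 and 3.08 in Control TAC, 4.43, 4.73 and 4.71 in Transgenic Sham and 4.65, 4.33 and 4.64 in Transgenic TAC. Only Control TAC was low, and the interaction of 1.16 ± 0.19 (adjusted p = 0.016) had a sham term of 0.15 ± 0.13. Snrpn (0.85 ± 0.18, adjusted p = 0.0303, lost with any of 6 single arrays left out), a splicing protein of neurons and heart, had the same form.

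Cyp2b10, a xenobiotic-metabolising cytochrome P450, had a large banded term upward. It read -1.27, -0.42 and -0.24 in Control Sham, -3.69, -2.01 and -3.70 in Control TAC, -1.18, -2.41 and 0.75 in Transgenic Sham and 2.13, 0.93 and 2.22 in Transgenic TAC. The transgenic banded hearts lay above all others, and the spread within Transgenic Sham was wide. The interaction was 5.19 ± 1.09 (adjusted p = 0.0281), with 94.2% from the banded term, and it lost its call with any of 7 single arrays left out. Penk, the precursor of enkephalins, also belonged here (1.84 ± 0.46, adjusted p = 0.0457, lost with any of 11 single arrays left out): its banding response was -2.08 in control and -0.24 in transgenic hearts. So did Retnla (4.54 ± 1.11, adjusted p = 0.0421, lost with any of 10), a marker of alternatively activated macrophages, while 0 of 5 measured macrophage markers passed.

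Genes of the baseline class differed between genotypes mainly in unbanded hearts. Myh7, the beta myosin heavy chain of the fetal and hypertrophied ventricle, was at about the level of banded control hearts in all transgenic hearts. It read 5.22, 3.999 and 4.66 in Control Sham, 8.50, 7.25 and 8.43 in Control TAC, 8.43, 8.21 and 8.39 in Transgenic Sham and 8.06, 8.16 and 8.08 in Transgenic TAC. Control Sham alone was low. The interaction was -3.68 ± 0.50 (adjusted p = 0.0133), the sham term 3.71 ± 0.36 (adjusted p = 0.0014) and the banded term 0.04 ± 0.36 (adjusted p = 0.972). The sum of the terms passed (adjusted p = 0.0063), and this test and the interaction passed with any of the 12 arrays left out. The adjusted p of the interaction was then up to 0.0493, just under the threshold. On the slide that held both sham groups (Transgenic Sham 2 with Control Sham 1 and 2) the sham term was 3.59. Its only Transgenic Sham array was thus the array with the raised negative control signal.

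**Figure D3:**
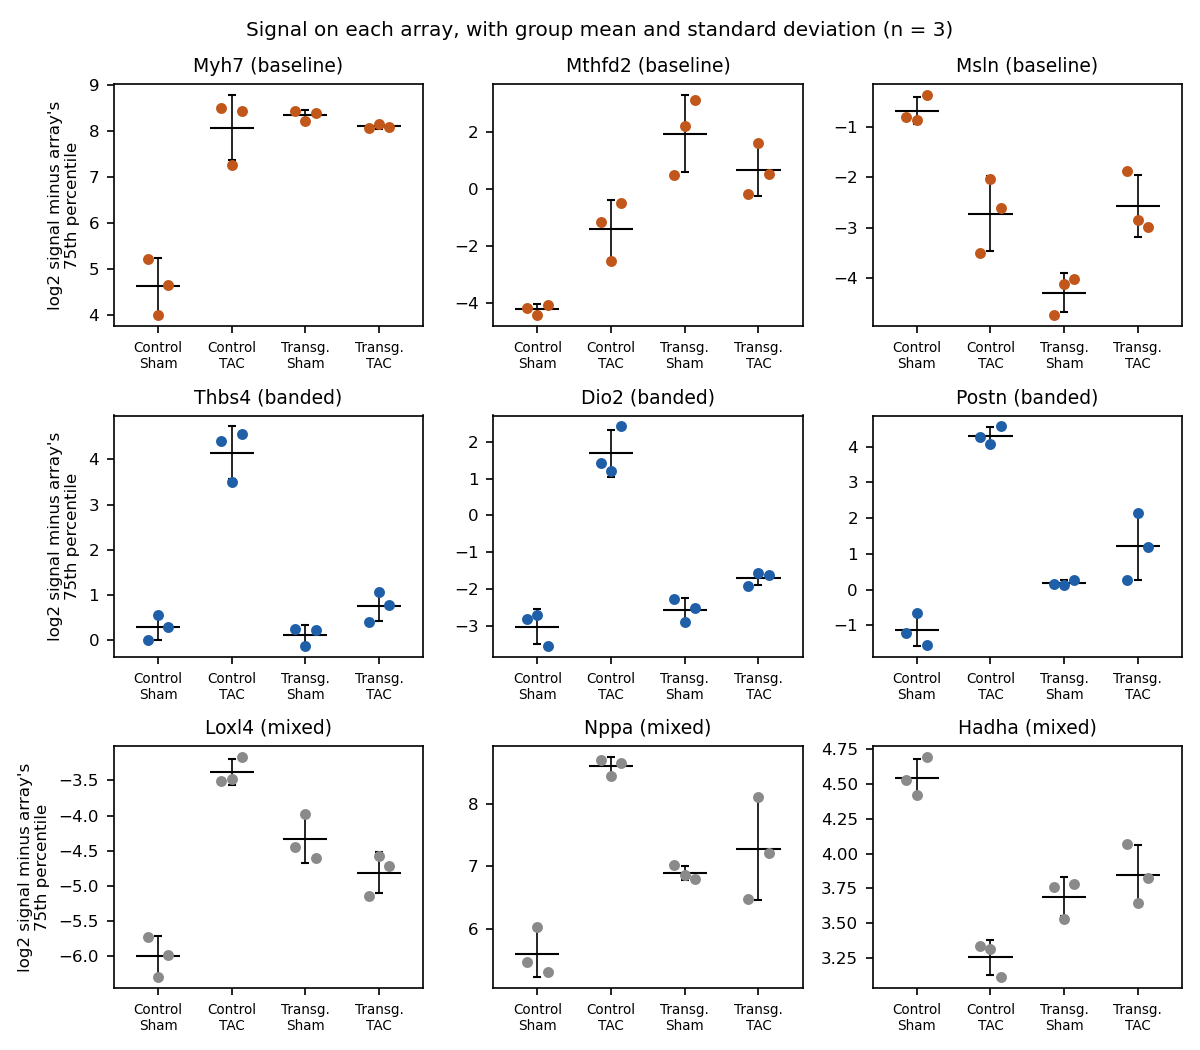
Log2 signal minus the array's 75th percentile (y axis) on each of the 3 arrays of the 4 groups (x axis) for 9 genes; points are arrays, horizontal lines are group means and bars are 1 SD. In the top row (baseline class) Control Sham stands apart, in the middle row (banded class) Control TAC stands apart, and in the bottom row (mixed class) transgenic hearts lie between the control groups under both surgeries.

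Mthfd2, a mitochondrial enzyme of the folate cycle that is low in normal adult tissue, was higher in transgenic sham than in banded control hearts. It read -4.19, -4.43 and -4.06 in Control Sham, -1.17, -2.54 and -0.51 in Control TAC, 0.48, 2.22 and 3.12 in Transgenic Sham and -0.18, 1.62 and 0.54 in Transgenic TAC. All transgenic hearts were above all control hearts, with and without the band. The sham term was 6.17 ± 0.72 (adjusted p = 0.00411), the banded term 2.06 ± 0.72 (adjusted p = 0.129) and the interaction -4.10 ± 1.01 (adjusted p = 0.043). Both terms were upward, so their sum is the genotype difference over both surgeries. That sum passed with any array left out (adjusted p up to 0.0171). The difference in size between the terms is here the interaction itself. It lost its call with any of 9 single arrays left out, among them Transgenic Sham 2. Of 17 measured genes of serine and one-carbon metabolism, 5 passed for the sham term upward (against 0.77% of all genes): Mthfd2, Phgdh (4.65 ± 0.60) and Psat1 (3.38 ± 0.64), which open serine synthesis, Aldh18a1 (2.45 ± 0.41), of proline synthesis, and the mitochondrial folate enzyme Aldh1l2. For the interaction, Mthfd2 was lower and Shmt1 higher (0.80 ± 0.20, mixed, lost with any of 10 single arrays left out), against 3.23% and 3.58% of all genes. The other 15 did not pass. The hormone Fgf21 was not well above background on any Control Sham array and at least 19.8-fold higher in Transgenic Sham (sham term adjusted p = 0.0121; group means -7.54 and -1.03), with an interaction of -2.79 ± 1.31 that did not pass (adjusted p = 0.222).

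Gdf15, a stress-induced hormone of the TGF-beta superfamily, was also baseline. It read -1.66, -1.68 and -1.66 in Control Sham, 2.09, -0.10 and 2.33 in Control TAC, -0.18, 1.89 and 2.39 in Transgenic Sham and 0.01, 0.91 and -0.61 in Transgenic TAC. Control Sham was low and tight, and the other groups overlapped. The interaction of -4.37 ± 1.08 (adjusted p = 0.0432) had 69.4% from a sham term that did not pass by itself (3.03 ± 0.76, adjusted p = 0.0903), and its call was lost with any of 10 single arrays left out. Of 27 measured genes of the ATF4 and amino acid response, 2 were lower (Gdf15 and Nupr1) and 1 higher (Vldlr), against 3.23% and 3.58% of all genes, although the list's median sham term was 1.04. Atf4 itself did not pass (-0.70 ± 0.66, adjusted p = 0.556).

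Iqgap3 and Spag5, genes of dividing cells, had the same form. Iqgap3 read -6.32, -6.34 and -6.17 in Control Sham and -3.37, -2.52 and -4.09 in Transgenic Sham. Its interaction was -3.45 ± 0.60 (adjusted p = 0.019), and its call was lost with any of 3 single arrays left out. Spag5 was not well above background on any Control Sham array, and Transgenic Sham was at least 2.59-fold and Control TAC at least 2.70-fold above it (interaction -3.26 ± 0.60, adjusted p = 0.0217, with sham means -6.69 and -3.97), so its class rests on no measured Control Sham level. Over 23 alternative settings, arrays left out included, the interaction shrank to as little as -1.47 for Iqgap3 and -0.70 for Spag5. Each gene lost its call in 5 of these settings. None of the 15 measured proliferation genes passed for the interaction (limma, 0 at the adjusted threshold), against 6.81% of all genes. Their median was -1.43, and the smallest adjusted p was that of Top2a (-3.67 ± 1.03, adjusted p = 0.0614). Myc, a growth-promoting transcription factor, was the 1 gene of 17 immediate early genes that passed, against 6.81% of all genes. Its interaction was -1.96 ± 0.50 (adjusted p = 0.0486, lost with any of 11 single arrays left out), and it was baseline.

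Other baseline genes were low in transgenic sham hearts. Msln, a surface protein of the mesothelium that covers the heart, read -0.79, -0.87 and -0.38 in Control Sham, -3.50, -2.04 and -2.61 in Control TAC, -4.73, -4.10 and -4.01 in Transgenic Sham and -1.87, -2.84 and -2.98 in Transgenic TAC. Control Sham was the only high group. The interaction was 3.75 ± 0.57 (adjusted p = 0.0139) and 96.0% of it was the sham term of -3.60 ± 0.40; with normexp the interaction was 2.26. Of the other mesothelial markers, Krt19 (1.61), Upk3b (2.19) and Wt1 (-0.88) did not pass; the mean of the 4 markers lay between -3.11 and -2.33 in Control Sham, -4.42 and -3.78 in Control TAC, -4.84 and -3.12 in Transgenic Sham and -4.16 and -3.19 in Transgenic TAC, and the part of the amount of surface tissue in a section was not tested. Dhrs4, a peroxisomal retinal reductase chosen after its values were seen, read 2.11, 2.04 and 2.18 in Control Sham, 1.31, 1.24 and 1.18 in Control TAC, 0.35, -0.06 and 0.12 in Transgenic Sham and 0.89, 0.67 and 0.43 in Transgenic TAC. All transgenic hearts were below all control hearts, the unbanded ones most. Its sham term was -1.97 ± 0.14 (adjusted p = 0.00018) and its interaction 1.39 ± 0.20 (adjusted p = 0.0139). The sum of its terms, both downward, also passed (adjusted p = 0.00019). The interaction and this sum passed with any array left out (adjusted p up to 0.0493 and 0.0014). With the slide as a fixed block, Dhrs4 was the 1 gene of the 32 that kept the call for the sum.

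Calcium handling had baseline members as well. Atp2a2, the pump that returns calcium to the sarcoplasmic reticulum, read 7.71, 7.61 and 7.78 in Control Sham, 6.84, 6.81 and 6.69 in Control TAC, 7.23, 7.02 and 6.87 in Transgenic Sham and 7.25, 6.92 and 7.08 in Transgenic TAC. Control Sham was high and Control TAC low, with transgenic hearts between them. The interaction was 0.97 ± 0.18 (adjusted p = 0.0218), and the sham term of -0.66 ± 0.13 (adjusted p = 0.0406) gave 68.4% of it, just inside the class; 4 arrays could end the call (Control Sham 1 and 3, Control TAC 3, Transgenic TAC 1). Trdn, which anchors the calcium release channel complex, was more clearly baseline, with 87.5% of 0.92 ± 0.14 (adjusted p = 0.0148). Scn4b, a beta subunit of sodium channels, had the largest interaction of the 26 ion channel and calcium genes, 4.24 ± 1.10 (adjusted p = 0.0491), with 79.5% from a sham term that did not pass by itself (adjusted p = 0.0681); its call was lost with any of 9 single arrays left out. Of these 26 genes 9 were higher (against 3.58% of all genes) and 0 lower, 3 of them baseline, 5 mixed and 1 banded.

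Mixed genes took part of their interaction from each term, so the genotype difference had opposite signs in sham and in banded hearts. The natriuretic peptide Nppa read 5.47, 6.02 and 5.31 in Control Sham, 8.70, 8.44 and 8.66 in Control TAC, 7.02, 6.87 and 6.79 in Transgenic Sham and 6.49, 8.11 and 7.22 in Transgenic TAC. Transgenic Sham was above every Control Sham heart and Transgenic TAC below every Control TAC heart. The interaction of -2.62 ± 0.49 (adjusted p = 0.022) was shared almost equally, 49.3% from the sham term and 50.7% from the banded term, though neither term passed by itself (adjusted p = 0.104 and 0.0624); the call was lost without Control Sham 1 or 3 or Control TAC 1 or 3. Cilp, a matrix protein of cartilage and the pressure-loaded heart, was mixed at -5.11 ± 0.66 (adjusted p = 0.0117), with 40.8% from the sham term.

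The fetal and hypertrophy genes did not share a class. Of 12 measured, 3 were lower for the interaction, against 3.23% of all genes. They were Myh7 (baseline), Nppa (mixed) and Ankrd1, a titin-binding stress protein (banded). Ankrd1 had -1.20 ± 0.31 (adjusted p = 0.047, lost with any of 11 single arrays left out), and the sum of its terms passed (adjusted p = 0.012). Nppb, the other natriuretic peptide of the list, read 5.26, 5.03 and 4.77 in Control Sham, 6.97, 6.89 and 7.51 in Control TAC, 4.63, 4.49 and 4.36 in Transgenic Sham and 5.70, 4.16 and 3.91 in Transgenic TAC. Banded control hearts alone were high; the banded term passed (-2.54 ± 0.40, adjusted p = 0.014) and the interaction did not (-2.01 ± 0.57, adjusted p = 0.0618). Acta1, skeletal alpha actin, did not pass either (0.55 ± 1.02, adjusted p = 0.784). Rcan1, an inhibitor of calcineurin that NFAT induces, likewise passed for the banded term (-1.12 ± 0.19, adjusted p = 0.0185) and not for the interaction (-0.88 ± 0.27, adjusted p = 0.0818). Of 14 measured calcineurin and NFAT genes 0 passed for the interaction, against 6.81% of all genes.

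Both terms passed by themselves for 29 of the 1724 genes; 174 had the sham term alone, 580 the banded term alone and 941 neither. Loxl4, a lysyl oxidase that crosslinks matrix, read -5.73, -6.30 and -5.98 in Control Sham, -3.51, -3.48 and -3.17 in Control TAC, -4.44, -3.97 and -4.61 in Transgenic Sham and -5.14, -4.57 and -4.72 in Transgenic TAC. The transgenic groups overlapped each other and lay above all Control Sham and below all Control TAC hearts. Its interaction was -3.09 ± 0.31 (adjusted p = 0.0112), its sham term 1.66 ± 0.22 (adjusted p = 0.008) and its banded term -1.42 ± 0.22 (adjusted p = 0.013); with normexp the interaction of this dim gene was -0.95. Loxl4, Robo1, a receptor of Slit guidance proteins (-2.28 ± 0.28), and the mitochondrial enzymes Ech1 and Crat were chosen after their values were seen, for having both terms.

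Of 34 measured genes of fatty acid uptake and oxidation 29 were higher for the interaction, against 3.58% of all genes, and 0 lower. Of these, 24 were mixed, 5 baseline and 0 banded; among all interaction genes 61.9% were mixed. The median interaction was 1.02, from a sham term of -0.57 and a banded term of 0.42. Hadha, the alpha subunit of the mitochondrial trifunctional protein, read 4.53, 4.42 and 4.69 in Control Sham, 3.34, 3.31 and 3.11 in Control TAC, 3.76, 3.53 and 3.79 in Transgenic Sham and 4.07, 3.64 and 3.83 in Transgenic TAC. The transgenic groups overlapped each other and lay between the control groups. Its interaction was 1.45 ± 0.20 (adjusted p = 0.0133), and both terms passed (-0.86 ± 0.14, adjusted p = 0.024, and 0.59 ± 0.14, adjusted p = 0.0482). Eci1, which moves double bonds during oxidation, and Ech1, of the same pathway, also had both, with interactions of 1.47 ± 0.20 and 1.81 ± 0.18. Crat, which makes acetylcarnitine, had 1.30 ± 0.19.

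Acot1, a cytosolic acyl-CoA thioesterase, had a larger interaction. It read 2.54, 2.32 and 2.17 in Control Sham, -0.64, 0.23 and -0.77 in Control TAC, 0.15, 0.33 and 1.17 in Transgenic Sham and 1.23, 0.78 and 2.05 in Transgenic TAC. Control Sham was above all others and the banded groups did not overlap. The interaction was 3.54 ± 0.54 (adjusted p = 0.0143), 50.6% from the sham term. Other higher genes of the list were Cd36 (0.71), the fatty acid transporter, and Cpt1b (0.72), the entry enzyme of mitochondria. Acsm5 (4.67 ± 0.89) was higher as well and lost its call with any of 3 single arrays left out. Ppara, the receptor that drives this programme, was baseline at 1.08, and its coactivator Ppargc1a did not pass (1.49 ± 0.51, adjusted p = 0.109). Pdk4, Ucp3, Cpt1a, Acot2 and Acot13 did not pass.

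Of 77 genes of oxidative phosphorylation 52 were higher, against 3.58% of all genes, 51 of them mixed and 1 baseline, with a median interaction of 0.72 (sham -0.37, banded 0.33). Atp5a1, of the ATP synthase, had 0.75 ± 0.13 (adjusted p = 0.0177) and Ndufb2, of complex I, 0.97 ± 0.16 (adjusted p = 0.0178). Of 21 TCA cycle genes 11 were higher, against the same 3.58%, 9 of them mixed; Idh2, the mitochondrial NADP-dependent isocitrate dehydrogenase, was baseline (0.89 ± 0.19, adjusted p = 0.0308, lost with any of 8 single arrays left out). The TCA cycle median was 0.67 (sham -0.36, banded 0.28). With quantile normalization in place of the percentile, these medians were 0.32 for oxidative phosphorylation, 0.31 for the TCA cycle and 0.78 for fatty acid oxidation. Median sham and banded terms were then -0.11 and 0.19, -0.15 and 0.15, and -0.42 and 0.34, in that order. Sarcomere genes (7 of 21 higher, median 0.59), ventricular muscle markers (5 of 10, median 0.63) and glycolysis (3 of 20, median 0.40) depended on the normalization more, with medians of 0.09, 0.13 and -0.01. The 75th percentile itself had an interaction of -0.62 on the unscaled log2 scale, so a gene with a higher interaction here is higher relative to that percentile. Among sham hearts the mean percentile was 9.41 with the transgene and 9.06 without it, and among banded hearts 9.52 and 9.80. Subtracting it thus lowers the sham term and raises the banded term of every gene. A gene of unchanged unscaled signal would have terms of opposite sign, as the medians of these lists do. Without Transgenic Sham 2, the number of higher genes was 21 for fatty acid oxidation (median 0.99), 17 for oxidative phosphorylation (median 0.71), 3 for the TCA cycle, 1 for glycolysis, and 0 for both sarcomere genes and ventricular markers, with 318 higher over all genes.

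**Figure D4:**
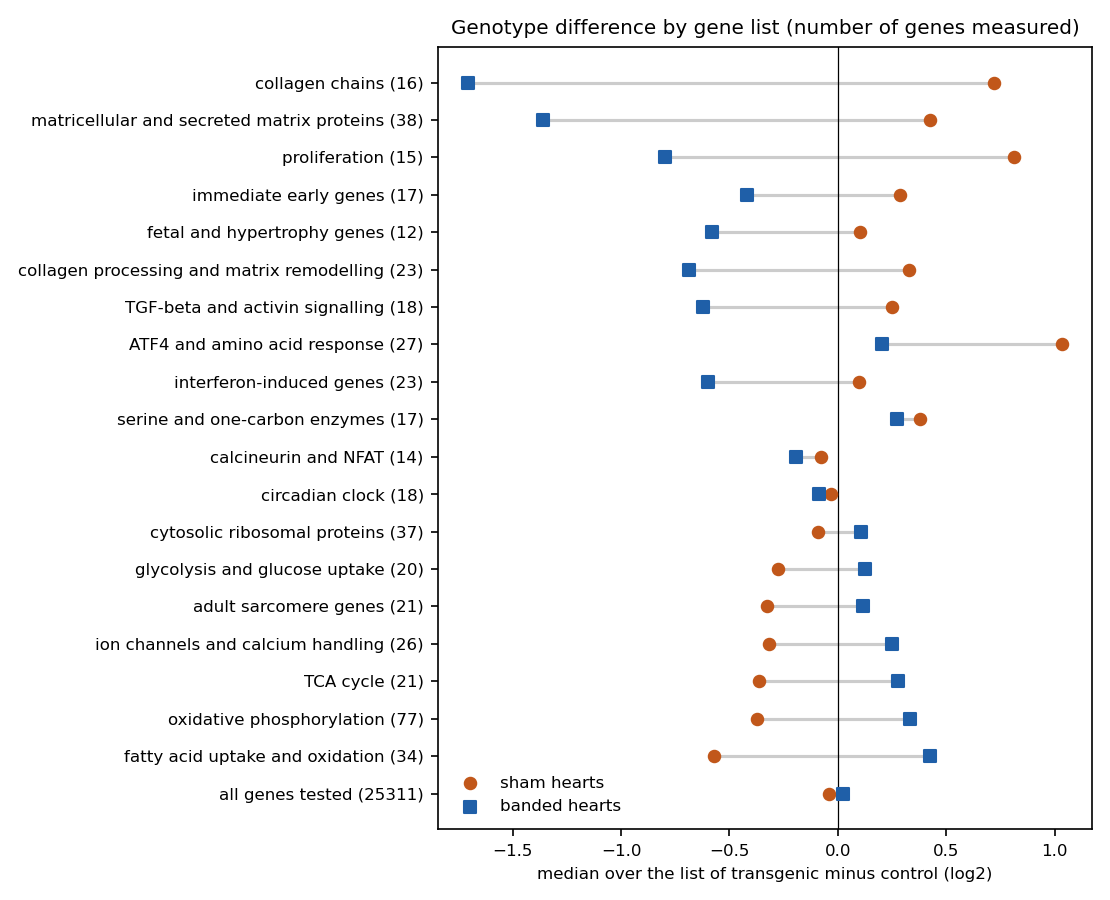
Median over each gene list of transgenic minus control (x axis, log2) in sham hearts (circles) and in banded hearts (squares), with the number of genes measured. Collagen chains run from 0.72 to -1.71, mostly on the banded side, fatty acid oxidation from -0.57 to 0.42 on both sides, and serine and one-carbon enzymes lie above 0 in both.

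Of 23 interferon-induced genes 3 were lower, Ifit2, Oasl2 and Stat2, each banded, against 3.23% of all genes. On the same list 1 was higher, Gbp6 (1.77 ± 0.34, mixed), against 3.58%. Ifit2 lost its call with any of 7 single arrays left out and Gbp6 with any of 4. Without Transgenic Sham 2, 1 gene of the list was lower and 1 higher, with 445 and 318 over all genes tested. Of the 18 clock genes, Per1 was lower (-1.43 ± 0.34, adjusted p = 0.0378, lost with any of 9 single arrays left out), against 3.23% of all genes. Of 37 cytosolic ribosomal proteins 0 passed, against 6.81%. Among markers of other cells, 3 of 7 smooth muscle and pericyte genes were lower, against 3.23% of all genes. They were Cnn1 (-2.52 ± 0.59, banded, lost with any of 9 single arrays left out), Cspg4 (lost with any of 7) and Pdgfrb. Without Transgenic Sham 2, 1 of these was left, with 445 lower over all genes tested. Of 6 endothelial genes 1 was lower with all arrays, Emcn (-1.06 ± 0.19, lost with any of 4), against 3.23% of all genes. None of the T cell, B cell, neutrophil, adipocyte, red cell, Schwann or lung markers measured passed. The mean level of the neutrophil markers S100a8 and S100a9 was uneven between arrays, from -1.30 to 1.93 in Control Sham, -1.67 to 1.47 in Control TAC, 1.73 to 3.11 in Transgenic Sham and -0.08 to 1.72 in Transgenic TAC.

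Chil1 and Frem1 were measured in few groups. They passed the filter on dim probes mainly (Chil1) or only (Frem1) through Control TAC, the group where they are high, so they had to differ and no test is given. Chil1, a chitinase-like protein of macrophages and injured tissue, was not well above background on any Control Sham or Transgenic TAC array, and Control TAC was at least 5.80-fold and 9.20-fold higher, as the bright mean over the dimmest measurable signal (group means -7.28, -2.81, -4.88 and -7.22 for Control Sham, Control TAC, Transgenic Sham and Transgenic TAC). Frem1, a basement membrane protein, was measured only in Control TAC, at least 7.44-fold above Control Sham and 11.8-fold above Transgenic TAC (means -7.57, -2.45, -5.99 and -7.13). Since the sham term of such genes has no measured level beneath it, their class is not given.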

How the data were processed

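The 12 arrays, 1 colour each, fall into 4 groups of 3. Per the file headers, the authors deposited Feature Extraction 10.7.3.1 output: gProcessedSignal, an intensity with background subtracted, and median spot and background intensities. The authors' deposited value table is in log2 units; its differences between arrays match those of log2 processed signals (slope 1), its probes are centred, and its scaling is unstated. RMA is named in the submitters' processing notes without a role.

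Outlier spots were dropped, 43020 spots averaged to 39429 probes, log2 taken and each array's 75th percentile subtracted. Probes were named by accession through a RefSeq table (GRCm38.p6); 26424 had a symbol. Probes well above background on at least 3 arrays were kept, the brightest per gene. A fold against a group not above background is a lower bound. limma 3.58.1 (R 4.3.3) fitted 4 group means over 12 arrays, two-sided. The steps were tested on simulated data.

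Named genes are, among those past the threshold, the 12 largest interactions per direction, up to 6 per class and direction, up to 4 members of each of 19 gene lists and 15 marker lists, fixed core genes, and genes said to be chosen after their values were seen; members of described lists are named with their list. Members and lists were chosen with earlier results of these data known. Some genes in the rule are not reported here. Alternatives were other scalings, normexp (offset 50, on median signals because the files hold no mean), the deposited table, filters, probe averaging, variance models, replicate and slide blocks, class limits, and each array left out. Arrays lay on 5 slides, none with all 4 groups. The number of arrays limits the precision.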

Additional observations from a re-analysis of the deposited data

Results flagged for a closer look

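The interaction is itself a test that the response to banding differs between genotypes, and it passed for 817 genes in the lower and 907 in the higher direction. Lower genes with the largest interactions were Chil1 (-6.82), Comp (-6.43), Frem1 (-6.27), Ltbp2 (-5.96), Cilp (-5.11), Atp6v0a4 (-5.02), Angptl7 (-4.64), Tmem200a (-4.60), Thbs1 (-4.56), Col5a2 (-4.52) and Postn (-4.43). Fitted values of Chil1, Frem1 and Atp6v0a4 rest on groups not above background and are no bounds; Frem1 passed the filter on dim probes through Control TAC alone. Among higher genes were enzymes, namely Cyp2b10 (5.19), Acsm5 (4.67), Ces1d (3.69), Acot1 (3.54), Pfkfb1 (3.19) and Klk1b26 (3.12), the secreted or surface proteins Retnla (4.54), Msln (3.75) and Clec18a (3.50), and the channel subunits Scn4b (4.24) and Lrrc52 (3.19).

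Outside the main measurement, the negative control spots of Transgenic Sham 2 gave a net signal of 48.6, above the level of every other array. Without that array all 1724 genes kept the sign of their interaction, 1590 of them (92.2%) their class and 701 their call. The genes were selected with that array included, so a kept sign is little support.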

How the results depend on the processing

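All 44 genes named for the size of their interaction or their class kept its sign under every setting that measured them. The filter on all 12 arrays measured 18 of them. None kept its call under normexp or with the slide as a fixed block. Of the 44, 11 kept it without Control Sham 1, 11 without Control Sham 3, 16 without Transgenic TAC 1 and 21 without Control TAC 3. With quantile normalization 25 kept it, with no filter 26 and with the replicate block 27. All 44 kept it with the deposited table and with a trended robust variance. With quantile normalization 902 interaction, 224 sham term, 94 baseline and 267 banded genes passed. Counts of interaction, sham term, banded term, baseline and banded genes were 619, 204, 457, 75 and 132 with median scaling; 0, 46, 42, 0 and 0 with normexp (2811 interaction genes at an unadjusted p under 0.05); 522, 129, 356, 66 and 124 with no filter; 3159, 1072, 2447, 458 and 978 with the filter on all 12 arrays; 2897, 948, 2186, 418 and 829 with a trended robust variance; 676, 126, 423, 90 and 160 with the replicate block; and 0, 65, 11, 0 and 0 with the slide as a fixed block. Of calls, 63.3% were lower with quantile normalization and 67.4% with median scaling, against 47.4%. The median interaction of all genes was -0.08 under normexp, against 0.06. Normexp also gave 1334 and the slide block 403 genes for banding in control hearts. With a class limit of 0.6 there were 356 baseline genes, with 0.8 there were 90 baseline and 151 banded. With 1 array left out, counts ran from 162 to 2184 (interaction), 84 to 640 (sham term), 175 to 1326 (banded term), 2745 to 6014 (banding in control hearts), 0 to 2 (in transgenic hearts), 18 to 432 (baseline) and 45 to 524 (banded genes). With 1 array left out Acta1 lay between -0.36 and 1.16; it turned to -0.36 without Control TAC 3 and Shmt2 to 0.017 without Transgenic Sham 3; neither had passed. The cause was not tested. Replicate numbers showed no pairing of the samples: same-numbered arrays correlated at -0.39 to 0.22 and others at -0.35 to 0.27. With 3 arrays per group this check could not exclude pairing. Signal near background limits genes at background in a whole group.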

Other observations

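Kcnj2, the inward rectifier channel that sets the resting potential, kept its interaction (1.29 ± 0.17) with any array left out. The adjusted p of the interaction was then up to 0.0493. With all arrays both terms were past the threshold. The channel subunit Kcnv2 had an interaction of 2.79 ± 0.50 with a sham term of -1.71 ± 0.35 (adjusted p = 0.0493), and its call was lost with any of 3 single arrays left out. Of glucose genes, Slc2a4, the insulin-responsive transporter, had 1.00 ± 0.20 (adjusted p = 0.0253, lost with any of 8 single arrays left out) and Pfkm, muscle phosphofructokinase, 0.71 ± 0.14 (adjusted p = 0.0252, lost with any of 5), both mixed.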
